A study of Homo sapiens with 9 samples.

Results

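Human mitochondrial DNA carries 37 genes, and all of them were listed in the table of 60664 genes sequenced in Huh-7 cells, a human hepatocellular carcinoma line. They were taken by their place on the mitochondrial chromosome, which is also shown by a symbol that begins with MT-, and they comprised 13 mRNA genes, 2 rRNA genes and 22 tRNA genes. Poly(A) RNA of 3 lines was sequenced, with 3 libraries each: unedited cells (WT), cells without the VTRNA1-1 gene (1-1 KO) and cells without the VTRNA1-2 gene (1-2 KO), which was cut out with CRISPR/Cas9. All were untreated Huh-7 cells grown to 80% confluency in medium with serum and antibiotics, and vault RNAs are short noncoding RNAs made by RNA polymerase III. The 1-2 KO line grew from 1 cell of the edited WT line, and the 1-1 KO cells were obtained with the WT cells from another laboratory, so that a knockout and the history of its line cannot be told apart. RNA was extracted in triplicate. The study calls the replicates biological but does not say that they came from separate cultures, and p-values measure the spread between these libraries.

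A library held between 32384469 and 41782387 counts. The vault RNAs themselves were at 2 counts or fewer in every library, so these libraries do not check the deletions. All 10 hepatocyte and hepatoma markers examined were above 3 counts in every library, with a summed level of 15378 to 16319 CPM (counts scaled by library size) in WT, 31704 to 32649 in 1-1 KO and 21812 to 23890 in 1-2 KO. Leukocyte markers summed to 115 CPM in each WT library, 102 to 107 in 1-1 KO and 21.5 to 22.4 in 1-2 KO, with 2 of 5 above 3 counts in every library. For endothelial cells 1 of 4 and for fibroblasts 4 of 5 markers were above 3 counts everywhere, and KDR was the 1 marker at 3 counts or fewer in all 9 libraries. The part of these markers in the results below was not tested. Within a line, counts varied by more than Poisson sampling between every pair of libraries, and no library was a duplicate of another.

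The mitochondrial mRNAs encode core subunits of the respiratory chain. Complex I, which oxidizes NADH, takes its ND subunits from mitochondrial DNA, and complex III takes cytochrome b. Complex IV takes its core CO subunits and complex V, the ATP synthase, its ATP6 and ATP8 subunits. The genome is transcribed from both strands into long precursors, the tRNAs are cut out between the other genes, and most mRNAs then receive a short poly(A) tail, for which MT-ND6, the mRNA of the opposite strand, is the known exception. Hepatocytes are rich in mitochondria and depend on the chain for gluconeogenesis, ureagenesis and fatty acid oxidation. Because the genes share precursors, their counts in a library are not independent of each other. In bulk RNA, fewer mitochondria per cell and less RNA per mitochondrion cannot be told apart.

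Some of the tRNA genes described below are shown first, with the anticodon in capitals. The sequences run 5′ to 3′ on the gene's own strand in the GRCh38 sequence of GENCODE 44. The genes are MT-TP (chrM:15956-16023, minus strand) for proline, MT-TC (chrM:5761-5826, minus strand) for cysteine, MT-TW (chrM:5512-5579, plus strand) for tryptophan and MT-TL2 (chrM:12266-12336, plus strand) for leucine. MT-TP borders the noncoding control region, in which transcription of both strands begins.
MT-TP: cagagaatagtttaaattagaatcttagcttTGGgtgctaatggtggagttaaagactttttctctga
MT-TC: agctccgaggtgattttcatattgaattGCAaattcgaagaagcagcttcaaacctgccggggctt
MT-TW: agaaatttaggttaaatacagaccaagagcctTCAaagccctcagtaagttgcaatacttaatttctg
MT-TL2: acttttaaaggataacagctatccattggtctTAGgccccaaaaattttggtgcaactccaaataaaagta

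The complex V genes are shown where they overlap, since reads in the shared stretch cannot be assigned to either. MT-ATP8 (chrM:8366-8572) and MT-ATP6 (chrM:8527-9207) have 46 bases in common, and MT-ND4L and MT-ND4 have 7. Counts of mRNAs in this report are counts of genes. Both genes of such a pair are counted, although they are not independent of each other and need not be separate RNAs. The window chrM:8512-8587 of the plus strand has the shared bases in capitals, from the start codon of MT-ATP6 to the end of MT-ATP8.
MT-ATP8 and MT-ATP6: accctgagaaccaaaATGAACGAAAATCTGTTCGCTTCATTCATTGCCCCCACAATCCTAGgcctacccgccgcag

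Mitochondrial genes took a smaller share of the counts in 1-1 KO than in WT, while the share in 1-2 KO lay within the range of WT. The share was 3.54, 3.04 and 2.75% in the WT libraries, 2.66, 2.43 and 2.62% in the 1-1 KO libraries and 2.90, 2.97 and 3.16% in the 1-2 KO libraries. Every 1-1 KO library was below every WT and every 1-2 KO library, and WT had the widest spread. On average the share was 3.11 ± 0.399% in WT, 2.57 ± 0.120% in 1-1 KO and 3.01 ± 0.132% in 1-2 KO (SD, n = 3 libraries each). The difference from WT was -0.539 percentage points in 1-1 KO and -0.0985 in 1-2 KO, and 1-2 KO was 0.441 points above 1-1 KO. A two-sided exact permutation test gave p = 0.1 in 1-1 KO, p = 0.800 in 1-2 KO and p = 0.1 between the knockouts, or 0.180, 0.900 and 0.180 after adjustment over 9 tests of shares. With 3 libraries against 3 the smallest p this test can give is 0.1, so none of these differences could pass a threshold of 0.05. WT replicate 1 held the highest share of all libraries, and without it the difference was -0.325 points in 1-1 KO and turned to 0.116 in 1-2 KO.

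Most of this share was mRNA. The 13 mRNAs made up 91.2 ± 0.975% of the mitochondrial counts in WT, 90.1 ± 0.130% in 1-1 KO and 88.5 ± 0.317% in 1-2 KO (SD, n = 3 libraries each). The tRNA genes held 0.225, 0.267 and 0.265% of the mitochondrial counts in WT, 0.432, 0.438 and 0.422% in 1-1 KO and 0.484, 0.477 and 0.436% in 1-2 KO. All knockout libraries were above all WT libraries for the tRNAs, and below them for the mRNAs. The higher tRNA share rested on MT-TP, which is described below. Without MT-TP, the tRNA genes held 444, 396 and 321 raw counts in the WT libraries. They held 287, 280 and 378 in 1-1 KO and 426, 340 and 348 in 1-2 KO, and these counts overlapped between the lines.

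**Figure D1:**
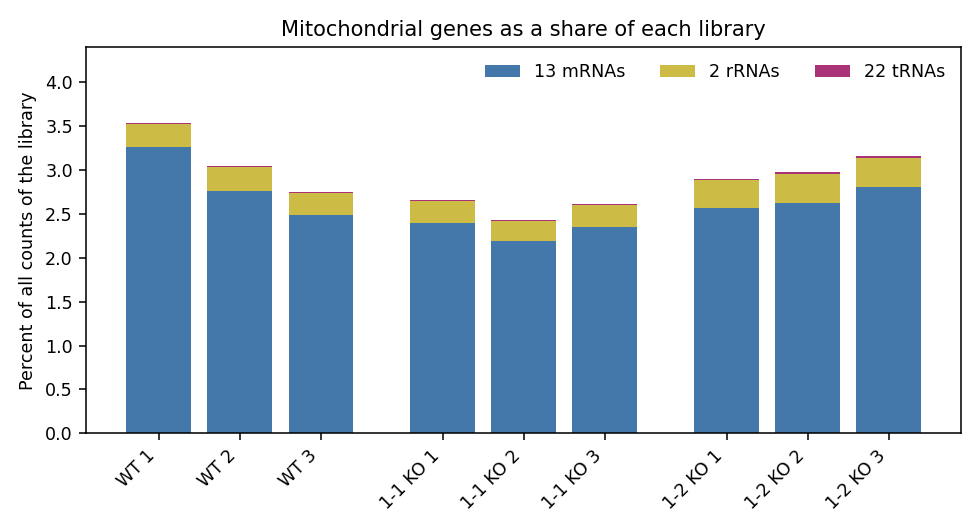
Percent of all counts of each library (vertical axis) taken by the 13 mRNAs, 2 rRNAs and 22 tRNAs of mitochondrial DNA, stacked, for the 9 libraries grouped by line. The bars reach from 2.43 to 2.66% in 1-1 KO and from 2.75 to 3.54% in WT, and the tRNA part is too thin to see at this scale.

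Per kilobase of gene, MT-CO2 and MT-CO3 of complex IV were the most abundant of the mRNAs and rRNAs. MT-CO2 led in each line, at 7565 ± 956 CPM per kb in WT, 5715 ± 222 in 1-1 KO and 6068 ± 486 in 1-2 KO (SD, n = 3 libraries each), followed by MT-CO3 at 5869 ± 482, 4589 ± 176 and 4871 ± 316 CPM per kb. In WT the libraries of these 2 genes did not overlap with each other or with the next gene, MT-ATP8, at 3991 ± 641 CPM per kb. Each neighbouring pair in the WT order from MT-ATP8 through MT-CO1, MT-ND4L, MT-ND4, MT-ATP6, MT-CYB and MT-ND5 to MT-RNR2 overlapped. MT-CO1 ranked 4th in WT at 3178 ± 453 CPM per kb, 5th in 1-1 KO at 2363 ± 109 and 3rd in 1-2 KO at 3480.2 ± 217. At the lower end of the order in WT stood MT-ND2 at 807 ± 113, MT-ND1 at 556 ± 103.8 and MT-RNR1 at 351 ± 10.1 CPM per kb, with no overlap between these 3. By raw counts, between 5 and 6 mitochondrial genes were among the 20 genes with the most counts of a library.

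In 1-1 KO, 11 of the 13 mRNAs were lower than in WT and 0 were higher at an adjusted p under 0.05 in edgeR's quasi-likelihood test. Over all tested genes, 63.4% were called in this comparison and 30.9% were called lower. The mRNAs had a median log2 fold change of -0.31, between -0.65 and -0.085, against 0.011 over all tested genes. The median of the mRNAs was -0.16 without WT replicate 1. For 10 of them every 1-1 KO library was below every WT library. Over all tested genes the libraries of the lines did not overlap for 68.9%, and 33.7% had 1-1 KO below WT. Of the 37 genes, 25 passed the filter on low counts and were tested, among them all mRNAs and rRNAs and 10 tRNAs. Over these 25, 2 were higher and 16 lower in 1-1 KO, 4 higher and 10 lower in 1-2 KO, and 9 higher and 1 lower in 1-2 KO against 1-1 KO. Over all tested genes, 32.5% were called higher and 30.9% lower in 1-1 KO. The shares were 28.2% and 26.2% in 1-2 KO, and 33.1% and 32.2% between the knockouts. The lower calls against WT include MT-TW and MT-TH, which passed the filter only through the WT libraries.

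The complex I mRNAs encode subunits of its membrane arm, of which ND2, ND4 and ND5 resemble antiporters and ND1 lies at the quinone site. Of them, 5 of 7 fell in 1-1 KO. MT-ND1 was at 642, 501 and 451 CPM in the WT libraries, 417, 383 and 426 CPM in the 1-1 KO libraries and 594, 591 and 629.6 CPM in the 1-2 KO libraries. The 1-1 KO libraries were the lowest, and the 1-2 KO libraries lay within the range of WT. In 1-1 KO, MT-ND1 was 1.30-fold lower than in WT (log2 fold change -0.38, standard error 0.093, adjusted p = 0.00265, edgeR), and without WT replicate 1 the log2 fold change was -0.22 (adjusted p = 0.00416). MT-ND2 was at 965, 827 and 731 CPM in the WT libraries, 736, 674 and 741 CPM in the 1-1 KO libraries and 738, 747 and 819 CPM in the 1-2 KO libraries, 1.17-fold below WT in 1-1 KO (edgeR, adjusted p = 0.0186), although 1-1 KO replicates 1 and 3 lay above the lowest WT library. Without WT replicate 1 the change of MT-ND2 was -0.12 on the log2 scale and no longer passed (adjusted p = 0.111 in edgeR).

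MT-ND5 was at 3615, 2898 and 2556 CPM in the WT libraries, 2519, 2299 and 2514 CPM in the 1-1 KO libraries and 2798, 2869 and 3066 CPM in the 1-2 KO libraries, and it fell 1.24-fold in 1-1 KO (adjusted p = 0.00897 in edgeR) with no library inside the WT range, or from -0.31 to -0.16 on the log2 scale without WT replicate 1 (adjusted p = 0.0366). MT-ND4L was at 928, 799.5 and 717 CPM in the WT libraries, 719, 689 and 710.2 CPM in the 1-1 KO libraries and 790.2, 765 and 818 CPM in the 1-2 KO libraries. It fell 1.15-fold in 1-1 KO (adjusted p = 0.0163 in edgeR) with 1 library of 1-1 KO inside the WT range, and the call was lost without WT replicate 1 (adjusted p = 0.0879), without 1-1 KO replicate 2 (adjusted p = 0.0599) and with scaling by library size alone (adjusted p = 0.0637). Leaving out 1-1 KO replicate 2 or scaling by library size alone also ended the call of MT-ND2 (adjusted p = 0.0860 and 0.0602 in edgeR). With library size alone the median log2 fold change over all tested genes was 0.061, against 0.011 in the fit reported.

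Changes of the remaining complex I mRNAs, MT-ND3 and MT-ND4, did not pass in 1-1 KO. MT-ND3 was at 469.9, 482 and 496 CPM in the WT libraries, 461, 437 and 467 CPM in the 1-1 KO libraries and 429.8, 408 and 423 CPM in the 1-2 KO libraries, with a log2 fold change of -0.085 in 1-1 KO (adjusted p = 0.0628 in edgeR). All 1-1 KO libraries were nonetheless below all WT libraries. The call was gained without WT replicate 1 (adjusted p = 0.0489), without 1-2 KO replicate 1 (0.0304) and under DESeq2 (0.0284). MT-ND4 was at 4188, 3326 and 2959 CPM in the WT libraries, 3319, 3034 and 3247 CPM in the 1-1 KO libraries and 3158, 3316 and 3579.7 CPM in the 1-2 KO libraries, with a log2 fold change of -0.13 in 1-1 KO (adjusted p = 0.253 in edgeR) and of 0.024 without WT replicate 1. Without WT replicate 3 it was -0.23 and passed (adjusted p = 0.0191 in edgeR).

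MT-CYB, which encodes cytochrome b of complex III, had the largest fall of the mRNAs in 1-1 KO. Its level was 2760.3, 2176 and 2045 CPM in the WT libraries, 1518, 1385 and 1551 CPM in the 1-1 KO libraries and 1674, 1806 and 1884 CPM in the 1-2 KO libraries. The lines stood apart, with WT highest and 1-1 KO lowest. MT-CYB fell 1.57-fold in 1-1 KO (log2 fold change -0.65, standard error 0.087, adjusted p = 1.58e-05, edgeR) and 1.30-fold in 1-2 KO (log2 fold change -0.38, standard error 0.087, adjusted p = 0.00201, edgeR). Without WT replicate 1 the log2 fold change in 1-2 KO was -0.24 (adjusted p = 0.00392). Over all alternative settings that of MT-CYB stayed within -0.73 to -0.51 in 1-1 KO and -0.49 to -0.24 in 1-2 KO.

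All 3 complex IV mRNAs fell in 1-1 KO, and in 1-2 KO they did not move together. MT-CO1, the largest catalytic subunit, was at 5618, 4858 and 4223 CPM in the WT libraries, 3789, 3459 and 3682 CPM in the 1-1 KO libraries and 5086, 5277 and 5736 CPM in the 1-2 KO libraries. The 1-1 KO libraries were below all others, and the 1-2 KO libraries overlapped with WT. MT-CO1 fell 1.34-fold in 1-1 KO (log2 fold change -0.43, standard error 0.079, adjusted p = 2.99e-04, edgeR), and its log2 fold change in 1-2 KO was 0.13 (adjusted p = 0.178 in edgeR). MT-CO2, which takes electrons from cytochrome c, was at 5882, 5047 and 4593 CPM in the WT libraries, 4007, 3734 and 3987 CPM in the 1-1 KO libraries and 3824, 4139 and 4488 CPM in the 1-2 KO libraries. Here all 6 knockout libraries were below WT, with a 1.32-fold fall in 1-1 KO (adjusted p = 3.25e-04 in edgeR) and a 1.25-fold fall in 1-2 KO (adjusted p = 0.00265). MT-CO3, the remaining core subunit, had the same order of lines as MT-CO2, at 4949.5, 4654 and 4199.5 CPM in the WT libraries, 3739, 3463 and 3591 CPM in the 1-1 KO libraries and 3602, 3765 and 4089 CPM in the 1-2 KO libraries, and fell 1.28-fold and 1.2-fold (adjusted p = 1.12e-04 and 0.00142 in edgeR).

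Both complex V genes, which overlap and are not independent of each other, fell in both knockouts. MT-ATP8 was at 976, 777 and 725 CPM in the WT libraries, 624, 569.8 and 665 CPM in the 1-1 KO libraries and 599, 592 and 586 CPM in the 1-2 KO libraries. Its fall was 1.33-fold in 1-1 KO (adjusted p = 6.50e-04 in edgeR) and 1.39-fold in 1-2 KO (adjusted p = 2.53e-04), the largest among the mRNAs in 1-2 KO. MT-ATP6, the subunit of the proton channel, was at 1824, 1464 and 1362 CPM in the WT libraries, 1341, 1239 and 1298 CPM in the 1-1 KO libraries and 1211, 1229 and 1324 CPM in the 1-2 KO libraries. It fell 1.2-fold in 1-1 KO (adjusted p = 0.0112 in edgeR) and 1.24-fold in 1-2 KO (adjusted p = 0.00538). Without WT replicate 1 the log2 fold change of MT-ATP6 went from -0.26 to -0.13 in 1-1 KO (adjusted p = 0.0449) and from -0.30 to -0.17 in 1-2 KO (adjusted p = 0.0135). Reads inside the shared stretch printed above may be missing from both genes or counted for both, since the overlap setting of the counting is not given in the sources used here.

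**Figure D2:**
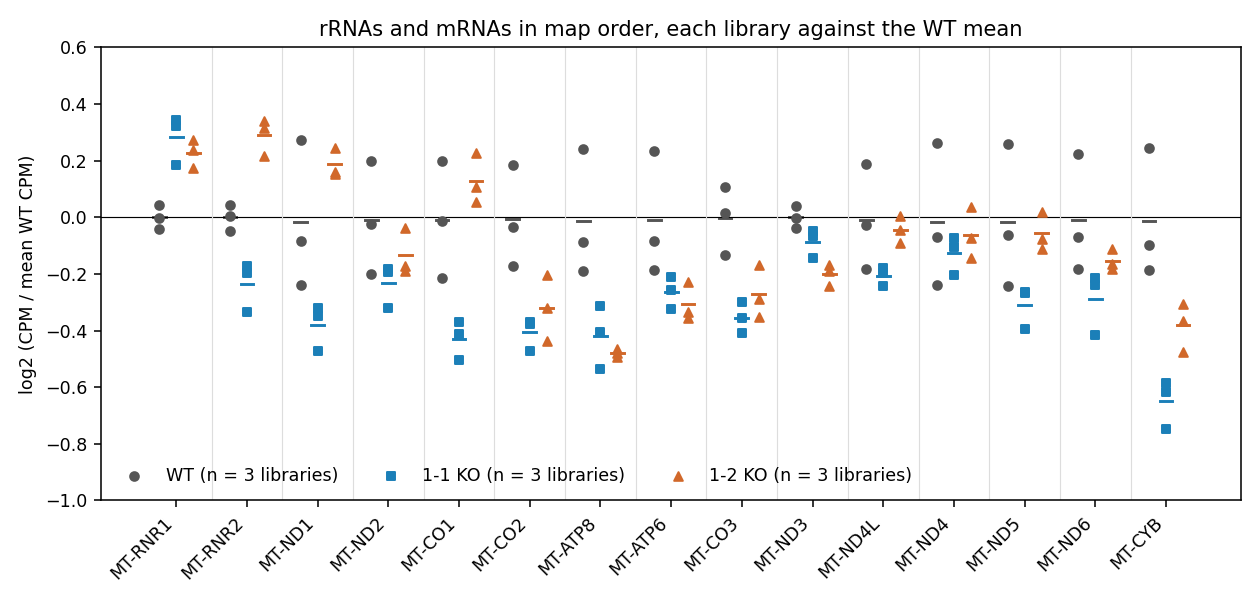
Level of the 2 rRNAs and 13 mRNAs in the order of the mitochondrial map (horizontal axis), as log2 of the CPM of each library divided by the mean CPM of WT (vertical axis). Points are single libraries, with 3 per line, and short bars the mean of the log2 values. MT-CYB and MT-CO2 lie below WT in both knockouts, and MT-RNR2 lies below WT in 1-1 KO and above it in 1-2 KO.

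In 1-2 KO, 6 of the 13 mRNAs were lower than in WT and 0 were higher, where 54.4% of all tested genes were called and 26.2% were called lower (edgeR's quasi-likelihood test). The median log2 fold change of the mRNAs was -0.15, between -0.48 and 0.19, against 0.019 over all tested genes. Those that fell were MT-CYB, MT-CO2, MT-CO3, MT-ATP8, MT-ATP6 and MT-ND3, and for these 6 mRNAs every 1-2 KO library was below every WT library, where 58.4% of all tested genes did not overlap, 29.8% with 1-2 KO above and 28.7% with 1-2 KO below WT. MT-ND3 was the only complex I mRNA among them, 1.15-fold lower than in WT (adjusted p = 4.48e-04 in edgeR). For MT-ND1 the log2 fold change was 0.19 (adjusted p = 0.104), for MT-ND2 -0.13 (0.169), for MT-ND4 -0.059 (0.617), for MT-ND4L -0.043 (0.618) and for MT-ND5 -0.055 (0.638). Without WT replicate 1, MT-ND1 and MT-CO1 were called higher in 1-2 KO, with log2 fold changes of 0.34 and 0.24 (adjusted p = 2.03e-04 and 0.00810 in edgeR), and the median of the mRNAs was -0.028. With scaling by library size alone, MT-ND1 was also called higher (adjusted p = 0.0450 in edgeR), where the median over all tested genes was 0.075 instead of 0.019. Without WT replicate 3, MT-ND2, MT-ND4L and MT-ND6 were called lower, with log2 fold changes of -0.24, -0.15 and -0.26 (adjusted p = 0.00545, 0.0341 and 0.00982). Without WT replicate 1, MT-ND4, MT-ND4L and MT-ND5 turned to 0.091, 0.059 and 0.092, and none of them passed.

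The 13 mRNAs spread more widely in WT than in either knockout. For 12 of the 13 mRNAs WT replicate 1 was the highest WT library and WT replicate 3 the lowest, and the level in replicate 1 was between 0.947 and 1.43 times that in replicate 3. The median coefficient of variation of the 13 mRNAs was 14.9% in WT, 4.63% in 1-1 KO and 4.83% in 1-2 KO. Expressed as a share of the counts of all 13 mRNAs, it was 3.11%, 1.62% and 1.98% in the same order. Both knockouts were compared with the same WT libraries, so that their differences from WT are not independent.

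The mRNA pool itself had a different make-up in each line. Complex I took 34.2, 33.0 and 32.8% of the mRNA counts in WT, 36.5, 36.4 and 36.7% in 1-1 KO and 36.0, 35.3 and 35.2% in 1-2 KO, with no overlap between any of the lines. Complex V took 8.15 ± 0.231% in WT, 8.34 ± 0.0557% in 1-1 KO and 7.03 ± 0.205% in 1-2 KO (SD, n = 3 libraries each). In 1-1 KO the share of 5 mRNAs was above and that of 3 below all WT libraries, and in 1-2 KO 5 were above and 5 below. By level, the libraries did not overlap with WT for 68.9% of all tested genes in 1-1 KO and 58.4% in 1-2 KO. Level is a different measure from a share of the pool, for which no share over all genes was computed. Shares of a pool have a fixed sum, so a rise of some lowers others. The shares of the mRNAs were described without a test. MT-ND4 stood at 12.0 ± 0.50% of the mRNA counts in WT and at 14.0 ± 0.0656% in 1-1 KO, and at 12.7 ± 0.0894% in 1-2 KO. MT-CO1 stood at 16.8 ± 0.309%, 15.9 ± 0.125% and 20.4 ± 0.113% in the same order, MT-CO2 at 17.8 ± 0.202%, 17.1 ± 0.105% and 15.8 ± 0.405%, and MT-CYB at 7.98 ± 0.287%, 6.48 ± 0.149% and 6.80 ± 0.135%.

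The ratio of MT-CO1 to MT-CO2, genes of 1 strand, varied little between libraries of a line. MT-CO1 and MT-CO2 lie next to each other on the map with a pair of tRNA genes between them. The libraries had 0.955, 0.963 and 0.919 MT-CO1 counts per MT-CO2 count in WT, 0.946, 0.926 and 0.924 in 1-1 KO and 1.33, 1.28 and 1.28 in 1-2 KO. The 1-2 KO libraries were above all others, at 1.37 times the WT mean, whereas 1-1 KO, at 0.985 times, overlapped with WT. The pair was chosen after its values were seen, and the ratio was not tested.

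The rRNAs of the small and large subunit of the mitochondrial ribosome, MT-RNR1 and MT-RNR2, are cut from the same precursor. MT-RNR1 was at 335, 345 and 326 CPM in the WT libraries, 419, 381 and 425 CPM in the 1-1 KO libraries and 378, 404 and 395 CPM in the 1-2 KO libraries. It was higher in every knockout library than in WT, 1.22-fold in 1-1 KO (log2 fold change 0.28, standard error 0.045, adjusted p = 6.91e-05, edgeR) and 1.17-fold in 1-2 KO (log2 fold change 0.23, standard error 0.045, adjusted p = 6.24e-04, edgeR). MT-RNR2 was at 2374, 2440.4 and 2289 CPM in the WT libraries, 2102, 1877 and 2065 CPM in the 1-1 KO libraries and 2749, 2946 and 2997 CPM in the 1-2 KO libraries. The lines did not overlap, with 1-1 KO lowest and 1-2 KO highest. MT-RNR2 fell 1.18-fold in 1-1 KO (log2 fold change -0.23, standard error 0.048, adjusted p = 6.84e-04, edgeR) and rose 1.22-fold in 1-2 KO (log2 fold change 0.29, standard error 0.048, adjusted p = 1.33e-04, edgeR), and it was the 1 gene of mitochondrial DNA called in opposite directions in the knockouts. Over all alternative settings the log2 fold change of MT-RNR2 stayed within -0.26 to -0.18 in 1-1 KO and 0.25 to 0.35 in 1-2 KO.

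The libraries had 7.09, 7.07 and 7.03 MT-RNR2 counts per MT-RNR1 count in WT, 5.02, 4.93 and 4.86 in 1-1 KO and 7.28, 7.28 and 7.59 in 1-2 KO. The 1-1 KO mean was 0.698 times and the 1-2 KO mean 1.05 times that of WT, a ratio chosen after its values were seen and not tested. Together the rRNAs held 7.47, 8.93 and 9.26% of the mitochondrial counts in WT, 9.59, 9.36 and 9.60% in 1-1 KO and 11.1, 11.4 and 10.8% in 1-2 KO, with no overlap of the lines. The difference from WT was 0.959 percentage points in 1-1 KO and 2.52 in 1-2 KO, and 1-2 KO was 1.56 points above 1-1 KO (p = 0.1 in each, two-sided exact permutation test, the smallest value possible, and 0.180 after adjustment over the 9 share tests). Without WT replicate 1 the difference in 1-1 KO was 0.418 points. Mitochondrial rRNA carries only short tails of adenosine, so in libraries selected for poly(A) these levels reflect the captured part.

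**Figure D3:**
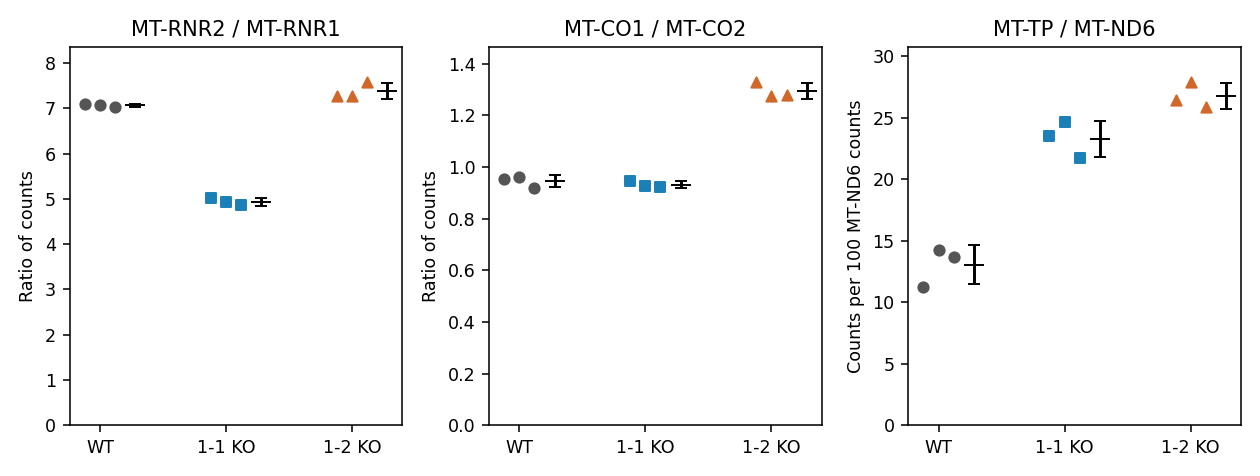
Ratios of raw counts within a library for MT-RNR2 over MT-RNR1, MT-CO1 over MT-CO2, and MT-TP per 100 counts of MT-ND6 (vertical axes, from 0). Points are the 3 libraries of each line, and the bar beside them is the mean ± SD. The first ratio is lowest in 1-1 KO, at 4.86 to 5.02, and the second highest in 1-2 KO, at 1.28 to 1.33.

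MT-ND6 (chrM:14149-14673) is the single mRNA gene of the minus strand. It was at 625, 510.1 and 472 CPM in the WT libraries, 454, 402 and 462 CPM in the 1-1 KO libraries and 478, 472 and 496 CPM in the 1-2 KO libraries. MT-ND6 fell 1.22-fold in 1-1 KO (adjusted p = 0.00677 in edgeR), where no library overlapped with WT and the log2 fold change went from -0.29 to -0.16 without WT replicate 1 (adjusted p = 0.0283). Its log2 fold change in 1-2 KO was -0.15 (adjusted p = 0.127). Relative to all mitochondrial mRNAs its share was 1.84 ± 0.0353% in WT, 1.92 ± 0.0674% in 1-1 KO and 1.84 ± 0.0723% in 1-2 KO (SD, n = 3 libraries each). The ranges of all lines overlapped, and the differences were 0.0758 percentage points in 1-1 KO and -0.00445 in 1-2 KO against WT, and -0.0803 between the knockouts (p = 0.300, 1.00 and 0.200, two-sided exact permutation test, or 0.386, 1.00 and 0.300 adjusted).

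Of the 22 tRNA genes, 10 passed the filter, and the other 12 had between 0 and 11 counts per library, which gives no basis for a comparison. Among the 10, 1 was called higher and 4 lower in 1-1 KO, and 2 were called higher and 4 lower in 1-2 KO, where 63.4% and 54.4% of all tested genes were called. MT-TW and MT-TH, 2 of the 4 in each knockout, and MT-TS2 reached the filter only through the WT libraries, so these counts do not speak for the tRNA genes as a group. Mature tRNA has no poly(A) tail, so the counts of a poly(A) library are those of any captured RNA from the gene's stretch of the genome. Whether the counting used the strand is not given in the sources used here, so that RNA of a gene and RNA from the other strand of the same stretch cannot be told apart, for MT-ND6 as well. MT-TP was far above the rest, with 2796, 2732 and 2040 counts in WT, 4519, 4071 and 4093 in 1-1 KO and 5331, 5254 and 5144 in 1-2 KO. It held 86.7 ± 0.574% of all tRNA counts in WT, 93.0 ± 1.32% in 1-1 KO and 93.4 ± 0.701% in 1-2 KO (SD, n = 3 libraries each). The other 9 tested tRNA genes had between 4 and 145 counts per library, where single fragments move the values.

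MT-TP, the proline tRNA gene beside the control region, rose in both knockouts, where no mRNA was called higher. It was at 70.3, 72.9 and 64.7 CPM in the WT libraries, 107, 99.0 and 100.3 CPM in the 1-1 KO libraries and 127, 132 and 128 CPM in the 1-2 KO libraries. The lines did not overlap, and 1-2 KO was highest. The rise was 1.47-fold in 1-1 KO (log2 fold change 0.56, standard error 0.046, adjusted p = 1.03e-07, edgeR) and 1.86-fold in 1-2 KO (log2 fold change 0.90, standard error 0.046, adjusted p = 9.67e-10, edgeR), and over all alternative settings the log2 fold change stayed between 0.51 and 0.61 and between 0.83 and 0.95. Against MT-ND6, which is read from the same strand, there were 11.2, 14.3 and 13.7 MT-TP counts per 100 MT-ND6 counts in WT, 23.5, 24.6 and 21.7 in 1-1 KO and 26.5, 27.9 and 25.9 in 1-2 KO. All knockout libraries were above all WT libraries, with means at 1.78 and 2.05 times the WT mean, a ratio also chosen after its values were seen. MT-TT, the threonine tRNA gene that ends next to MT-TP on the other strand, had between 1 and 11 counts per library.

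The other tRNA gene that rose was MT-TC, the cysteine tRNA gene printed above. It had 48, 48 and 40 counts in WT, 38, 60 and 68 in 1-1 KO and 75, 81 and 89 in 1-2 KO. It rose 1.61-fold in 1-2 KO (log2 fold change 0.68, standard error 0.19, adjusted p = 0.00850, edgeR), and its log2 fold change in 1-1 KO was 0.098 (adjusted p = 0.697). Its neighbour MT-TY, for tyrosine, had 40, 52 and 33 counts in WT, 31, 43 and 36 in 1-1 KO and 86, 56 and 49 in 1-2 KO, with log2 fold changes of -0.37 in 1-1 KO and 0.44 in 1-2 KO (adjusted p = 0.183 and 0.0991 in edgeR). MT-TE, for glutamate, is the fourth tested tRNA gene of the minus strand, and its log2 fold changes were -0.37 and -0.16 (adjusted p = 0.0617 and 0.412). Calls were gained for MT-TY in 1-2 KO without 1-2 KO replicate 3 (adjusted p = 0.0389) and for MT-TE in 1-1 KO without 1-1 KO replicate 1 (adjusted p = 0.0314, lower).

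All tRNA genes called lower lie on the plus strand, a grouping made after the values were seen. MT-TW and MT-TH are among them in each knockout and reached the filter only through WT, so nothing is drawn from this grouping. MT-TW, the tryptophan tRNA gene, had 35, 21 and 17 counts in WT, 11, 6 and 16 in 1-1 KO and 10, 4 and 7 in 1-2 KO. Neither knockout overlapped with WT in CPM, and the fitted level was 2.49-fold lower in 1-1 KO (log2 fold change -1.32) and 3.83-fold lower in 1-2 KO (log2 fold change -1.94). MT-TW reached the filter only through the WT libraries, where it is high, so its calls after the filter are not given as tests. In a fit of every gene with a count, with no such filter, the adjusted p was 2.07e-04 in 1-1 KO and 3.97e-07 in 1-2 KO (edgeR). For MT-TP in 1-1 KO that fit moved the adjusted p from 1.03e-07 to 9.53e-29, with log2 fold changes of 0.56 and 0.54. Its p-values are therefore not comparable with the others and are not read as strong evidence for MT-TW. MT-TL2, a leucine tRNA gene, had 145, 106 and 96 counts in WT, 80, 75 and 109 in 1-1 KO and 110, 88 and 84 in 1-2 KO, and it fell 1.49-fold and 1.38-fold (adjusted p = 0.00628 and 0.0256 in edgeR). The fall of MT-TL2 in 1-2 KO no longer passed without WT replicate 1 (adjusted p = 0.120), without 1-2 KO replicate 2 (0.0712), without 1-2 KO replicate 3 (0.0831) or with library size alone (0.0507). MT-TL1, the other leucine tRNA gene, had 30, 25 and 18 counts in WT, 19, 7 and 15 in 1-1 KO and 21, 23 and 19 in 1-2 KO, with a 2.02-fold fall in 1-1 KO (adjusted p = 0.00889 in edgeR) and a log2 fold change of -0.37 in 1-2 KO (adjusted p = 0.278).

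MT-TH, for histidine, had 16, 16 and 14 counts in WT, 4, 9 and 14 in 1-1 KO and 9, 6 and 8 in 1-2 KO, with fitted levels 1.93-fold and 2.22-fold lower. It too reached the filter only through WT. In the fit without the filter the adjusted p was 0.0376 in 1-1 KO and 0.0134 in 1-2 KO (edgeR). DESeq2 called neither (adjusted p = 0.132 and 0.0782), but it was run after the same filter, so this is not given as a test either. The p-values of the fit without the filter have the limit given for MT-TW. MT-TG, for glycine, had 26, 33 and 28 counts in WT, 22, 26 and 25 in 1-1 KO and 25, 18 and 23 in 1-2 KO, and its fall in 1-2 KO (1.48-fold, adjusted p = 0.0427, edgeR) was lost under DESeq2 (adjusted p = 0.180), with scaling by library size alone and without any 1 of 7 libraries, with an adjusted p of up to 0.137 in edgeR. In 1-1 KO the log2 fold change of MT-TG was -0.45 (adjusted p = 0.0869, or 0.0416 without WT replicate 1). MT-TS2, for serine, had 21, 13 and 9 counts in WT, 10, 7 and 26 in 1-1 KO and 16, 7 and 4 in 1-2 KO. Its log2 fold changes were -0.18 in 1-1 KO and -0.82 in 1-2 KO, and neither was called. MT-TS2 also reached the filter only through WT, so this is not given as a test.

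**Figure D4:**
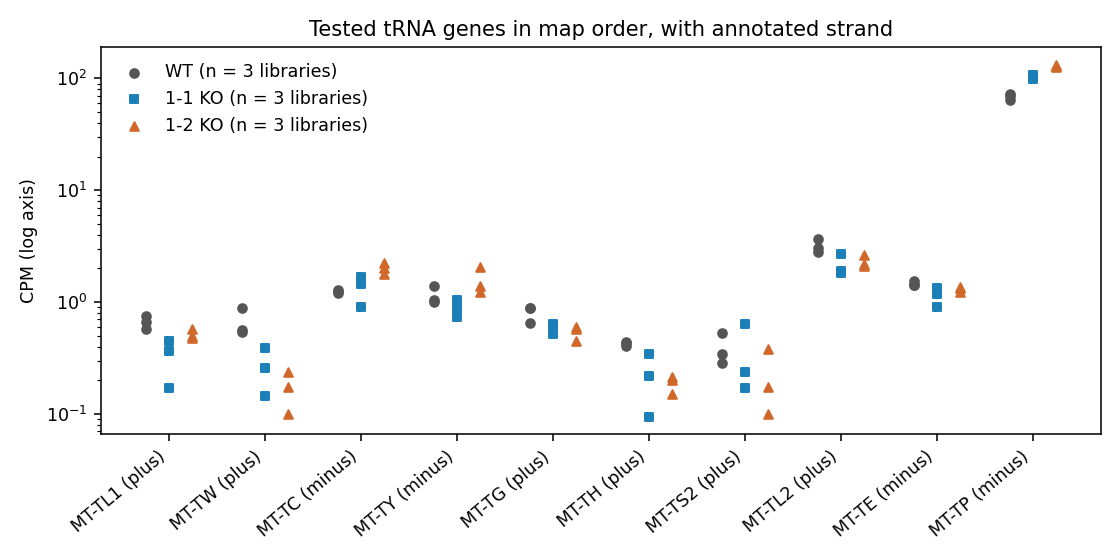
Level of the 10 tested tRNA genes in CPM (vertical axis, log scale) in the order of the map, with the annotated strand in the label. Points are single libraries, with 3 per line. MT-TP stands at 64.7 to 132 CPM, and the other genes at 0.0945 to 3.64 CPM.

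Compared directly, 1-2 KO was higher than 1-1 KO for 5 mRNAs and lower for 1, where 65.3% of all tested genes differed, 33.1% upward (edgeR's quasi-likelihood test). Libraries of the knockouts did not overlap for 6 mRNAs with 1-2 KO above and 1 with 1-2 KO below, against 69.8% of all tested genes in either direction. The WT libraries enter this comparison through the filter, the scaling and the shared estimate of spread. Fitted on the 6 knockout libraries alone, 22 members were tested. The median log2 fold change of the mRNAs was then 0.076, against 0.099 with all libraries. Over all tested genes the median was -0.012 in that fit and 0.012 with all libraries. The largest differences among mRNAs and rRNAs were those of MT-ND1, 1.48-fold higher in 1-2 KO (log2 fold change 0.57, standard error 0.093, adjusted p = 9.48e-05, edgeR), MT-CO1, 1.47-fold higher (log2 fold change 0.56, standard error 0.079, adjusted p = 2.44e-05), and MT-RNR2, 1.44-fold higher (log2 fold change 0.52, standard error 0.048, adjusted p = 2.67e-07). MT-CYB was 1.2-fold, MT-ND5 1.19-fold and MT-ND4L 1.12-fold higher (adjusted p = 0.0146, 0.0250 and 0.0477 in edgeR), and MT-ND3 was 1.08-fold lower (adjusted p = 0.0160). Without 1-1 KO replicate 2 or 1-2 KO replicate 3, MT-CYB and MT-ND5 did not pass (adjusted p = 0.0718 and 0.0524 for MT-CYB, 0.102 and 0.0807 for MT-ND5). MT-ND3 did not pass without 1-1 KO replicate 1 or 3 or 1-2 KO replicate 2 (adjusted p = 0.0606, 0.0707 and 0.0716), and MT-ND4L not without any 1 of the 6 knockout libraries or WT replicate 2 (adjusted p = 0.0518 to 0.137). DESeq2 did not call MT-CYB, MT-ND5 or MT-ND4L (adjusted p = 0.0536, 0.0857 and 0.121). For MT-ATP6, MT-ATP8, MT-CO2, MT-CO3, MT-ND2, MT-ND4 and MT-ND6 the log2 fold change between the knockouts lay between -0.064 and 0.13 and did not pass, although MT-ND6 did without WT replicate 1 (adjusted p = 0.0375). MT-RNR1 differed by -0.057 on the log2 scale (adjusted p = 0.276, or 0.0484 without 1-1 KO replicate 2).

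**Figure D5:**
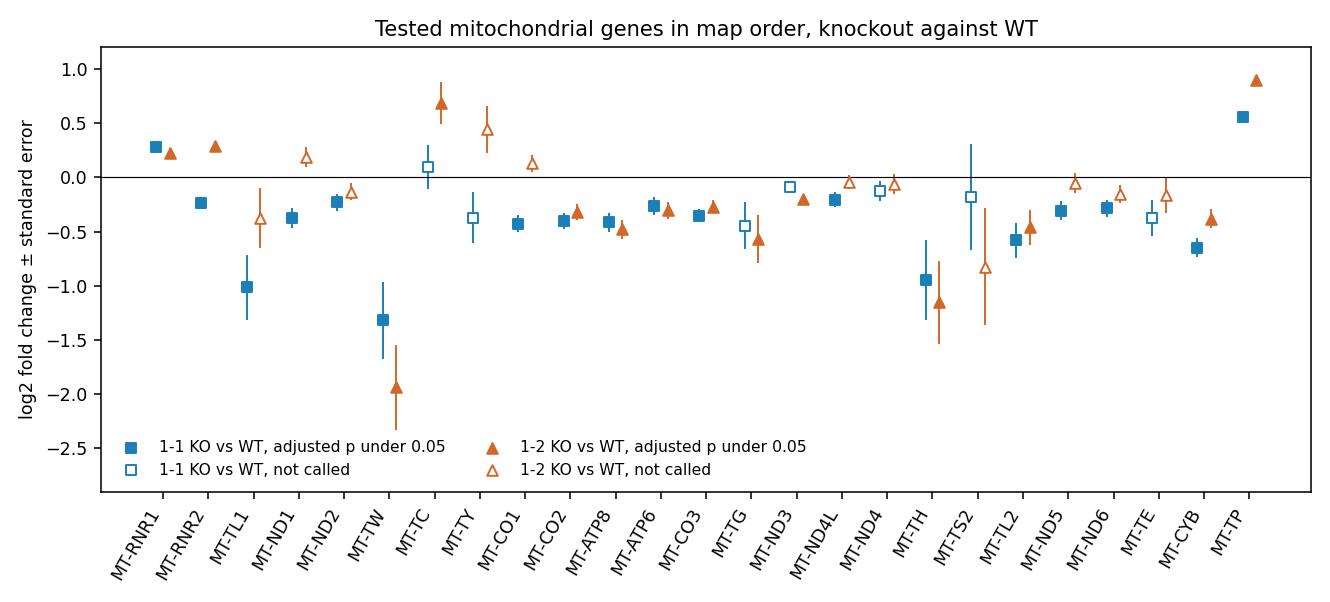
Log2 fold change against WT ± standard error (vertical axis) of the 25 tested genes in the order of the map, for 1-1 KO (squares) and 1-2 KO (triangles), with filled symbols where the adjusted p was under 0.05 in edgeR. MT-TP, at 0.56 and 0.90, is highest in both, and MT-TW, at -1.32 and -1.94, is lowest. MT-TW and MT-TH reached the filter only through the WT libraries, so their filled symbols are not read as tests.

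Copies of mitochondrial genes in nuclear DNA can take reads from the members or lend reads to them. The 4 copies with the most counts lie side by side on chromosome 1. MTATP6P1 (chr1:633696-634376) is identical to MT-ATP6 at 671 of 681 aligned bases, MTND2P28 (chr1:629640-630683) to MT-ND2 at 1025 of 1042, MTND1P23 (chr1:629062-629433) to MT-ND1 at 349 of 352, and MTCO1P12 (chr1:631074-632616) to MT-CO1 at 1522 of 1543. Their counts came to 7.45 to 8.97% of those of MT-ATP6, 7.89 to 8.46% of MT-ND2, 4.11 to 5.09% of MT-ND1 and 0.149 to 0.182% of MT-CO1 across the 9 libraries. All 404 listed copies together held between 0.665 and 0.823% as many counts as the members. How reads that match several places were counted is not given in the sources used here, so the levels of these 4 members carry an uncertainty that the counts do not resolve.

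Mitochondrial DNA is transcribed, copied and its RNA processed by nuclear-encoded proteins, of which a list of 52 was examined. Of these, 10 were called higher and 28 lower in 1-1 KO, where the shares over all tested genes were 32.5% and 30.9%. In 1-2 KO 9 were higher and 18 lower, against 28.2% and 26.2% of all tested genes. Compared directly, 1-2 KO had 24 of the list above 1-1 KO and 14 below it, against 33.1% and 32.2%. The counts by role below are to be read against the same shares, 63.4% called in 1-1 KO and 54.4% in 1-2 KO. The median log2 fold change against WT was -0.15 in 1-1 KO and -0.051 in 1-2 KO. Among the 10 transcription genes, calls in 1-1 KO were 6 lower and 2 higher, those in 1-2 KO 4 lower and 1 higher. TFB2M, which opens the promoter for the polymerase, was at 52.1 ± 0.947 CPM in WT, 32.2 ± 0.376 in 1-1 KO and 41.7 ± 1.11 in 1-2 KO (SD, n = 3 libraries each), 1.62-fold and 1.25-fold lower (adjusted p = 3.01e-09 and 9.92e-06 in edgeR). TFAM, which packages mitochondrial DNA and bends its promoters, was at 197 ± 6.21 CPM in WT and fell 1.08-fold and 1.19-fold (adjusted p = 0.0121 and 1.40e-05). POLRMT, the mitochondrial RNA polymerase, rose 1.26-fold in 1-1 KO (adjusted p = 0.0184), with a log2 fold change of -0.054 in 1-2 KO (adjusted p = 0.717). For TEFM, an elongation factor, the log2 fold changes were -0.0027 and -0.17 (adjusted p = 0.978 and 0.0635).

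MRPL12, a protein of the mitochondrial ribosome, rose in both knockouts, by 1.47-fold and 1.39-fold (adjusted p = 0.00960 and 0.0272 in edgeR). It was at 10.4 ± 2.88 CPM in WT, 15.1 ± 1.25 in 1-1 KO and 14.3 ± 2.91 in 1-2 KO (SD, n = 3 libraries each). The 1-2 KO libraries overlapped with WT. Of 14 genes of RNA stability, 9 were lower against 2 higher in 1-1 KO, and 6 against 2 in 1-2 KO. LRPPRC, which with SLIRP stabilizes mitochondrial mRNAs, was at 308 ± 7.78 CPM in WT, 241 ± 4.07 in 1-1 KO and 289.9 ± 7.75 in 1-2 KO (SD, n = 3 libraries each), with a 1.28-fold fall in 1-1 KO (log2 fold change -0.36, standard error 0.035, adjusted p = 6.73e-07, edgeR) and a 1.06-fold fall in 1-2 KO (adjusted p = 0.0495). SLIRP had a log2 fold change of 0.058 in 1-1 KO (adjusted p = 0.393) and fell 1.11-fold in 1-2 KO (adjusted p = 0.0421), where its libraries overlapped with WT. Of 8 genes of RNA processing, 6 were lower against 0 higher in 1-1 KO, and 4 against 1 in 1-2 KO. The 12 replication genes split evenly, with 4 higher and 4 lower in 1-1 KO and 3 higher and 3 lower in 1-2 KO. MGME1, a nuclease that trims the ends of replicating mitochondrial DNA, rose in 1-1 KO from 80.7 ± 3.13 to 163 ± 5.53 CPM (SD, n = 3 libraries each, log2 fold change 1.02, standard error 0.042, adjusted p = 8.59e-11, edgeR). In 1-2 KO it rose 1.08-fold (adjusted p = 0.0316 in edgeR), and the libraries overlapped with WT. Among 8 regulators of biogenesis, 2 were higher against 3 lower in 1-1 KO, and 2 against 1 in 1-2 KO. PPARGC1A, a coactivator of mitochondrial biogenesis, was low throughout, at 0.123 ± 0.0629 CPM in WT, 0.538 ± 0.0865 in 1-1 KO and 0.213 ± 0.0539 in 1-2 KO (SD, n = 3 libraries each). It reached the filter only through the 1-1 KO libraries, where it is high, so no test is given for it, although it is 1 of the regulators counted as higher there. PPARGC1B, its relative, rose 1.47-fold in 1-2 KO (adjusted p = 5.28e-04), with a log2 fold change of -0.23 in 1-1 KO (adjusted p = 0.0912).

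The nuclear-encoded subunits of the same complexes were counted beside the 13 mitochondrial mRNAs, and no difference between these sets was tested. Of 80 tested nuclear subunits among 88 listed, 26 were higher and 29 lower in 1-1 KO, where 32.5% and 30.9% of all tested genes were. Their median log2 fold change was 0.030, where that of the mitochondrial mRNAs was -0.31. For 1-2 KO the counts were 10 higher and 40 lower, against 28.2% and 26.2% of all tested genes, and the median was -0.15, where that of the mitochondrial mRNAs was -0.15.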

How the data were processed

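The deposited values are raw read counts per gene. The authors sequenced libraries made with a stranded mRNA kit, used STAR for alignment to GRCh38 and featureCounts for counting. The study names a release of the reference, while tool versions and the settings for strand, overlapping genes and multiple matches are not given in the sources used here. Of 60664 genes, 60463 had an identifier in GENCODE 44, which gave positions, lengths and sequences on GRCh38.

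Genes were kept with edgeR's filterByExpr (minimum count 10, total 15), which left 17207. They were fitted with edgeR 4.0.16 (R 4.3.3, TMM scaling, quasi-likelihood test) in 1 model of all 9 libraries, with p-values adjusted over all of them by Benjamini-Hochberg and a threshold of 0.05. The standard error is the absolute log2 fold change divided by the square root of F. CPM are counts divided by the TMM-scaled library size on the usual CPM scale, and per kb they are divided by the length in GENCODE 44. Differences of shares were tested with a two-sided exact permutation test (scipy), adjusted over 9 tests. The model was tested on simulated data. Alternatives were DESeq2 1.42.0, other scalings and filters, a stricter threshold, each comparison fitted on its own, a replicate block and leaving out each library.

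The members and lists were chosen with earlier results of these data known. Named were all 37 members by class and, of the nuclear list, 7 regulators in any case and the 2 called genes with the largest absolute log2 fold change in each knockout. The labels give no batch, and libraries with the same number did not deviate together (correlations of -0.187 to 0.0474 over 9 pairs).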

Additional observations from a re-analysis of the deposited data

Results flagged for a closer look

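For 10 of the 25 tested genes of mitochondrial DNA, where the share over all tested genes was 65.3%, the effect against WT differed between the knockouts by the test of that difference, which is the direct comparison of 1-2 KO with 1-1 KO in edgeR's quasi-likelihood test. The value given is the log2 fold change in 1-2 KO minus that in 1-1 KO. For MT-RNR2, the rRNA of the large ribosomal subunit, it was 0.52 (adjusted p = 2.67e-07), with a fall in 1-1 KO and a rise in 1-2 KO. The differences of MT-ND1 and MT-CO1 were 0.57 and 0.56 (adjusted p = 9.48e-05 and 2.44e-05), and both were called lower in 1-1 KO alone. MT-CYB, MT-ND5 and MT-ND4L differed by 0.27, 0.25 and 0.16 (adjusted p = 0.0146, 0.0250 and 0.0477), and MT-ND3 by -0.11 (adjusted p = 0.0160). Among tRNA genes, MT-TP differed by 0.34, MT-TC by 0.59 and MT-TY by 0.82 (adjusted p = 1.18e-05, 0.0138 and 0.00483). Between 31 and 89 counts per library stood behind MT-TC and MT-TY. Leaving out 1-1 KO replicate 1 or 1-2 KO replicate 3 ended the call of MT-TC (adjusted p = 0.0660 and 0.0518). What these differences come from was not tested.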

How the results depend on the processing

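Leaving out 1 library at a time gave 2 genes higher and 13 to 17 lower in 1-1 KO, 4 to 6 and 7 to 12 in 1-2 KO, and 5 to 10 and 0 to 2 in 1-2 KO against 1-1 KO. In the fit reported, 63.4%, 54.4% and 65.3% of all tested genes were called in these comparisons. The parts of all genes called under the changed settings, here and below, were not counted. With 1 library left out, the mitochondrial share differed from WT by -0.720 to -0.325 percentage points in 1-1 KO and -0.279 to 0.116 in 1-2 KO, and between the knockouts by 0.367 to 0.495. The rRNA share differed by 0.418 to 1.31, 1.97 to 2.87 and 1.41 to 1.70, and that of MT-ND6 by 0.0437 to 0.111, -0.0443 to 0.0263 and -0.120 to -0.0481, in the same order. Log2 fold changes whose sign turned were those of MT-ND4 (-0.23 to 0.024), MT-TS2 (-0.94 to 0.14) and MT-TC (-0.088 to 0.32) in 1-1 KO, MT-ND4 (-0.19 to 0.091), MT-ND4L (-0.15 to 0.059) and MT-ND5 (-0.18 to 0.092) in 1-2 KO, and MT-TH (-0.57 to 0.27) and MT-TS2 (-1.31 to 0.11) between the knockouts. None was called in the fit reported or where it turned. Without WT replicate 3, MT-ND4 in 1-1 KO and MT-ND4L in 1-2 KO were called lower, as was MT-ND4 in 1-1 KO with no filter on low counts. With library size alone MT-ND4L and MT-ND5 in 1-2 KO turned to 0.012 and 1.39e-04. The median over all tested genes was 0.075 there, against 0.019 in the fit reported. With no filter on low counts, MT-ND1 and MT-CO1 were called higher (adjusted p = 3.78e-04 and 0.0193) and MT-ND2 and MT-ND6 lower (0.00266 and 5.18e-04) in 1-2 KO. The log2 fold change of MT-ND1 was then 0.17, against 0.19 in the fit reported, so the p-values of these fits are not comparable. At an adjusted p under 0.01, 5 genes were higher and 0 lower between the knockouts. Of the other settings, 189, 182 and 188 values kept direction and call in the 3 comparisons, and 3, 7 and 4 lost the call. The cause was not tested.

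The labels number the replicates alike in each line, but this does not pair the libraries. With the replicate number as a block, 2 genes were higher and 16 lower in 1-1 KO, 4 and 9 in 1-2 KO, and 9 and 1 between the knockouts, and MT-TG in 1-2 KO lost its call (adjusted p = 0.0608 in edgeR). Low counts limit the tRNA genes other than MT-TP.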
